A study of Rattus norvegicus with 2 samples.

Results

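The histone genes on the array were taken as every probe set that names at least 1 gene whose symbol fits fixed histone name patterns. This rule uses names and no measured values, and it leaves out Cenpa, the gene of the centromeric H3 variant. This gave 56 of the 29870 probe sets, naming 59 of the 18836 gene symbols on the array, with shared probe sets counted once. They were measured in lens epithelial cells (LECs) of 5-week-old Shumiya cataract rats (SCRs), with 1 GeneChip Rat Gene 2.0 ST array for each condition. The Cat+ sample came from rats of the genotype Lss s/Lss l, in which the lens turns opaque, and the Cat- sample from rats of the genotype Lss s/Lss s, whose lenses stay clear. Lss encodes lanosterol synthase, an enzyme of cholesterol synthesis, and both groups carry the s allele of the SCR strain. Each sample was the RNA of 2 eyes from dissected lens capsules with the attached epithelium, so there were no replicates, no error between animals could be computed and no test was run. In bulk RNA of this kind, fewer cells of a type and less RNA per cell cannot be told apart.

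Histones are the proteins around which nuclear DNA is wound. A nucleosome holds a core of H2A, H2B, H3 and H4, and H1 binds the linker DNA between nucleosomes. Most histone protein is made in S phase from replication-dependent genes, which lie in clusters, lack introns and end their mRNA in a conserved stem-loop in place of a poly(A) tail. The stem-loop is bound by SLBP, and these mRNAs are broken down when DNA synthesis stops. Some clustered genes also make polyadenylated mRNA in cells that have left the cell cycle. The variant histones, such as H2A.Z, H2A.X and H3.3, are mostly encoded by single genes with polyadenylated mRNA and are made throughout the cell cycle. In the lens, the epithelium divides near the equator, and its daughters leave the cycle, become fiber cells and later lose their nuclei.

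The promoters shown here, from RefSeq's GRCr8 table, belong to the histone genes on which the results turn. They are the gene of the H2A probe set with the lowest value in Cat+ relative to Cat-, the H3 gene of the same cluster with the highest value among replication-dependent H3 genes, and the DNA between the starts of an H2A gene and an H2B gene transcribed away from each other, for a pair on chromosome 17 and a pair on chromosome 2. Each is written 5′ to 3′ on the strand given, and capitals mark matches on either strand to the CCAAT box (CCAAT), the TATA box (TATAAA) and the octamer of histone promoters (ATTTGCAT, which reads ATGCAAAT on the other strand). The first 2 sequences are the 150 bases before the annotated start of the gene. That of the chromosome 17 pair is the 250 bases before the start of H2ac12, which end just short of the start of H2bc12.
H2ac18, chr2:186497121-186497270, plus strand: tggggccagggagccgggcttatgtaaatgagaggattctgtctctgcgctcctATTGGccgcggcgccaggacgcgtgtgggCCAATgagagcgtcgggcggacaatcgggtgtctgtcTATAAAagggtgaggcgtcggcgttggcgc
Hist2h3c2, chr2:186526012-186526161, plus strand: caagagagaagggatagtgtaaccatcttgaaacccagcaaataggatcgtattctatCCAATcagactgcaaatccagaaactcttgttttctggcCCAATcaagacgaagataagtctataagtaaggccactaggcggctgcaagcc
H2bc12 to H2ac12, chr17:47181943-47182192, plus strand: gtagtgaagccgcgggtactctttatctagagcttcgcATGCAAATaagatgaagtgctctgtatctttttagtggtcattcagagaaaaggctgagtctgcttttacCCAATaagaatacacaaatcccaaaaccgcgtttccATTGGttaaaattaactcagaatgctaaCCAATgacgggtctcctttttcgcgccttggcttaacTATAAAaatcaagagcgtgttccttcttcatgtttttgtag
H2ac20 to Hist2h2be, chr2:186469227-186469451, plus strand: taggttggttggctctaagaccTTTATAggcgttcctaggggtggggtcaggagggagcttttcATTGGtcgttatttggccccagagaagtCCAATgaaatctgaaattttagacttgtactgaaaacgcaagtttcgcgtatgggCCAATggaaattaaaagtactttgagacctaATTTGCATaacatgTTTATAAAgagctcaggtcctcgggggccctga
The 300-base promoter windows of H2ac18 and of its copy Hist2h2aa2, on the minus strand of the same cluster, shared an identical run of 271 bases, displaced by 29 bases between the annotated starts. The array has 1 probe set for both genes, so their signals cannot be told apart.

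Of the 56 probe sets, 37 name 1 gene and 19 name several. The deposited values are normalized log2 signals, and the difference Cat+ minus Cat- was taken from them with no further scaling. The median of all probe sets was log2 5.69 in Cat+ against 5.67 in Cat-, and 41 of the histone probe sets reached the median of the array in at least 1 sample. The other 15 stayed below it, and since the file holds no detection calls, whether those genes were expressed is unknown. The 40 probe sets that name at least 1 gene with a symbol of the cluster series, such as H2ac12 or Hist1h3b, are called replication-dependent here. The other 16 are called variants. Symbols alone decided this, so the probe sets of H2bu1 alone and of H3f4 count as variants, although RefSeq places both genes in the chromosome 10 cluster. As a measure of technical spread, the differences of probe sets naming the same single gene had an SD of 0.17 over 291 genes, and those of 13 histone probe sets in 5 groups that name the same genes had an SD of 0.20 on the log2 scale. These SDs cover probe sets and not animals. Among markers of the tissue, 12 of 13 listed lens epithelium genes were measured, with a median difference of -0.04. Of these, 5 were higher and 7 lower in Cat+, where 51.7% of all probe sets were higher. The highest differences were in Foxe3, at log2 9.72 in Cat+ and 9.53 in Cat-, and Cdh1, at 9.83 in Cat+ and 9.65 in Cat-. The lowest were in Cdk4, at 10.02 in Cat+ and 10.28 in Cat-, and Col4a1, at 9.12 in Cat+ and 9.24 in Cat-. All 12 reached the array's median and none was more than 25% higher or 20% lower in Cat+.

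Most histone genes had similar signals in Cat+ and Cat- LECs. The 56 probe sets had a median log2 difference of 0.07, a ratio of 1.05, against 0.01 over all probe sets. Cat+ was higher in 36 of the 56 and lower in 20, where 51.7% of all probe sets were higher. By the study's size rule of 2-fold, 1 histone probe set was lower in Cat+ and 0 were higher, where 0.348% of all probe sets were past 2-fold lower and 0.0234% past 2-fold higher. That 1 probe set names the H2A genes Hist2h2aa2 and H2ac18. At 1.5-fold the counts were again 1 lower and 0 higher, where 1.01% and 0.472% of all probe sets were. A smaller step, of 25% higher or the reciprocal 20% lower, was passed by 6 histone probe sets toward higher signal, where 4.83% of all probe sets passed it, and by 5 toward lower signal, where 4.95% did. Of these 6 and 5, 3 and 1 lay below the array's median in both samples. Of the 41 histone probe sets at or above it, 3 passed the step higher and 4 lower. Over all 15628 such probe sets, 987 passed it higher and 1206 lower. The plot of histone probe sets by type and class shows these differences.

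**Figure D1:**
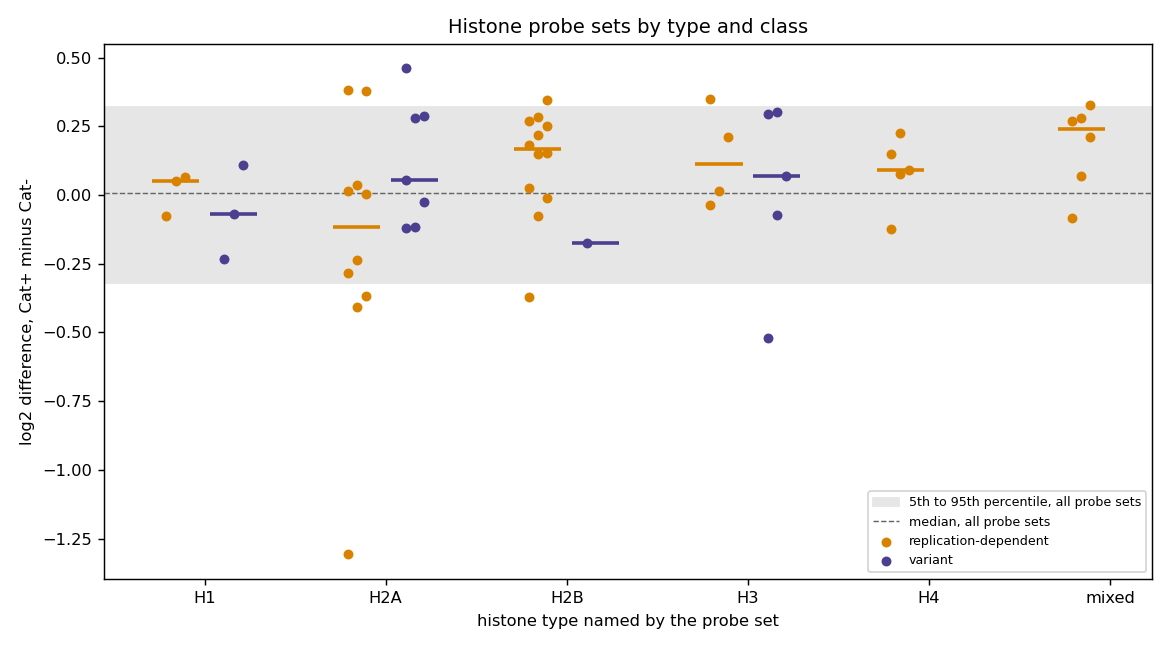
Log2 difference Cat+ minus Cat- of each of the 56 histone probe sets, by the histone type it names, with replication-dependent genes left and variants right within each type and a bar at each median; the shaded band runs from the 5th to the 95th percentile of all probe sets. The Hist2h2aa2 and H2ac18 probe set at -1.31 lies far below the other 55, which run from -0.52 to 0.46.

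The probe set of Hist2h2aa2 and H2ac18, which encode a replication-dependent H2A, stood at log2 7.64 in Cat+ against 8.95 in Cat-. The difference was -1.31, a ratio of 0.404, so that the signal was 2.48-fold lower in Cat+. It was lower than that of all but 0.174% of the probe sets on the array. The next lowest histone probe set, H3f4, was at -0.52. Centring, quantile normalization and a loess curve on signal put the Hist2h2aa2 and H2ac18 difference between -1.31 and -1.28.

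**Figure D2:**
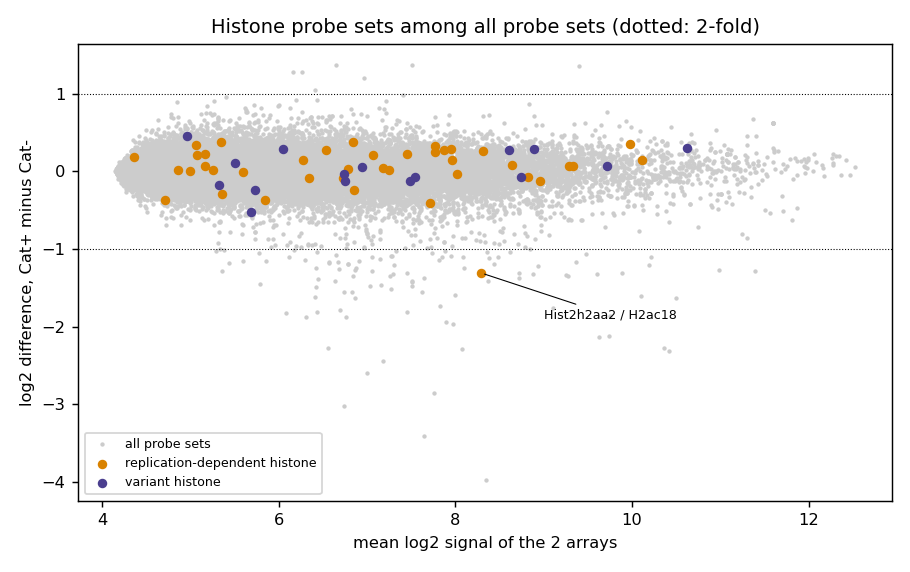
Log2 difference Cat+ minus Cat- against the mean log2 signal of the 2 arrays, for all 29870 probe sets in grey, replication-dependent histone probe sets in orange and variants in violet; dotted lines mark 2-fold. A single histone probe set lies outside the dotted lines, below them at a difference of -1.31.

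This low value stood alone in its neighbourhood. In RefSeq's order on chromosome 2, the cluster runs H2ac21, H2ac20, Hist2h2be, Hist2h2aa2, H2ac18, H4c14, Hist2h3c2 and H2bc18, the last of which the array names by its older symbol Hist2h2bb. H2ac21, the H2A gene at the end of the row, stood at log2 6.80 in Cat+ against 6.77 in Cat-. H2ac20, also H2A, had 5.21 in Cat+ and 5.50 in Cat-, below the array's median in both. Hist2h2be, its H2B neighbour, had 6.35 in Cat+ and 6.20 in Cat-. These 3 genes on one side of the pair thus differed by at most 0.29 in size.

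On the other side, all 3 genes had a probe set of their own, and these 3 were higher in Cat+. Probe sets that name Hist2h3c2 with other H3 genes were at 0.01 and -0.04. Those that name H4c14 with other H4 genes were at -0.12, 0.08 and 0.09. H4c14, an H4 gene, stood at log2 10.19 in Cat+ against 10.05 in Cat-. Hist2h3c2, which in mouse encodes the H3.2 form of H3, had 10.16 in Cat+ and 9.81 in Cat-, a ratio of 1.27 and the highest difference among replication-dependent H3 probe sets. Hist2h2bb, an H2B gene, had 8.04 in Cat+ and 7.89 in Cat-. Over the 7 probe sets that name genes of this cluster alone, 5 were higher and 2 lower in Cat+, with a median difference of 0.15. Of all probe sets, 51.7% were higher.

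**Figure D3:**
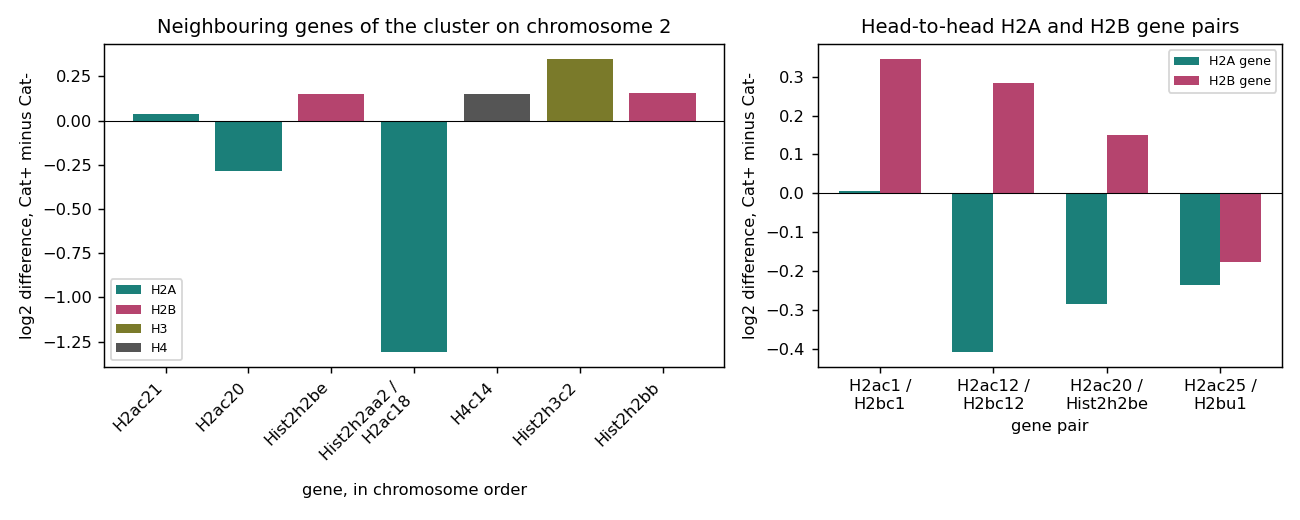
Log2 differences Cat+ minus Cat- of the probe sets of the chromosome 2 histone cluster in chromosome order (left), and of 4 head-to-head pairs of an H2A gene and an H2B gene, with H2A left in each pair (right); bars start at 0. The shared probe set of Hist2h2aa2 and H2ac18 is at -1.31, while the probe sets of H4c14 alone and Hist2h3c2 alone are at 0.15 and 0.35. Probe sets that these 2 genes share with others are not drawn. In each of the 4 pairs the H2B gene lies above its H2A partner.

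Apart from this probe set, H2A genes pointed both ways. Of 10 replication-dependent H2A probe sets, 5 were higher and 5 lower in Cat+, where 51.7% of all probe sets were higher. Their median was -0.12, or 0.01 without Hist2h2aa2 and H2ac18. H2ac12 stood at log2 7.51 in Cat+ against 7.91 in Cat-, a ratio of 0.754. Hist1h2af had 5.66 in Cat+ and 6.02 in Cat-, a ratio of 0.776. At the other end, H2ac4 had 7.03 in Cat+ and 6.65 in Cat-, a ratio of 1.30. The 2 probe sets that both name Hist1h2ah and Hist1h2ao gave differences of 0.38 and 0.01, so these genes have no single value here, and both probe sets lay below the array's median. The remaining H2A probe sets were H2ac25, encoded in the small cluster on chromosome 10, at -0.24, H2ac20 at -0.29, H2ac21 at 0.04 and the testis gene H2ac1 at 0.01.

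H2B genes leaned toward higher signal in Cat+. Of 12 replication-dependent H2B probe sets, 9 were higher and 3 lower, where 51.7% of all probe sets were higher. Their median difference was 0.17, a ratio of 1.12. H2bc12 stood at log2 8.10 in Cat+ against 7.82 in Cat-, Hist1h2bg had 8.01 in Cat+ and 7.74 in Cat-, and the testis gene H2bc1 had 5.24 in Cat+ and 4.89 in Cat-. Their ratios were 1.22, 1.21 and 1.27. The lowest were Hist1h2bo, at 4.52 in Cat+ and 4.89 in Cat-, Hist1h2bq, at 8.78 in Cat+ and 8.86 in Cat-, and Hist1h2bd, at 5.59 in Cat+ and 5.60 in Cat-. Hist1h2bo and Hist1h2bd lay below the array's median in both samples. So did H2bc1, H2bc9, H2bcl1 and the shared probe set of Hist3h2ba and H2bu1, all counted as higher in Cat+. Among the 6 replication-dependent H2B probe sets at or above that median, 5 were higher in Cat+, and among the 6 such H2A probe sets 2 were, where 49.3% of all probe sets at or above the median were. In all, 1 replication-dependent H2B probe set was more than 25% higher and 1 more than 20% lower, where 4.83% and 4.95% of all probe sets were. All 12 differences lay within 2 SDs of 0, with the SD of 0.20 between histone probe sets of the same genes. None of the 5 groups behind that SD names H2B genes. It covers probe sets and not animals, so it cannot judge whether H2B genes differ.

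H2A and H2B genes often lie head to head and share the DNA between their starts as a promoter. RefSeq places 8 such pairs among the genes named here, and in 4 of them each gene has a probe set of its own. H2ac12 and H2bc12 had differences of -0.41 and 0.28, and H2ac20 and Hist2h2be had -0.29 and 0.15. H2ac1 and H2bc1 had 0.01 and 0.35, while H2ac25 and H2bu1 had -0.24 and -0.18. H2bu1 is also named with Hist3h2ba by a probe set at 0.02. The H2B gene lay above its H2A partner in 4 of 4 pairs, and the signs were opposite in 2. In a further pair Hist1h2bo, at -0.37, had a probe set of its own but its H2A partner Hist1h2ai did not. The 3 probe sets that name Hist1h2ai with other genes had differences of 0.07, 0.21 and 0.27, all above Hist1h2bo, which runs the other way from the 4 pairs. These probe sets also name the H2A partners of H2bc9 and H2bcl1, which were at 0.22 and 0.18, within their range. The pairs H2ac20 and Hist2h2be, H2ac1 and H2bc1, and H2ac25 and H2bu1 each include at least 1 gene below the array's median in both samples, which leaves H2ac12 and H2bc12 as the pair with both genes above it.

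Of the 4 H3 probe sets classed as replication-dependent, that of Hist2h3c2 alone was more than 25% higher in Cat+, and none was more than 20% lower. H3f4, which lies in the chromosome 10 cluster but counts as a variant here, was lower, at a ratio of 0.697. Hist1h3b, measured alone, stood at log2 7.17 in Cat+ against 6.96 in Cat-, a ratio of 1.16. The probe set that names H3c13, Hist1h3b and Hist2h3c2 had 7.25 in Cat+ and 7.24 in Cat-. A further one that names H3c1, H3c13, Hist1h3b and Hist2h3c2 had a difference of -0.04, from a log2 signal of 8.03 in Cat-. With Hist2h3c2, 3 of 4 replication-dependent H3 probe sets were higher in Cat+, where 51.7% of all probe sets were. The H3 probe sets of several genes lay closer to 0 than those of 1 gene.

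For H4, whose genes encode the same protein, Cat+ was higher in 4 of 5 probe sets, where it was higher in 51.7% of all probe sets. Hist1h4b alone stood at log2 7.57 in Cat+ against 7.34 in Cat-, a ratio of 1.17, and H4c14 alone had a ratio of 1.11. The 3 probe sets that each name H4cl3, H4c14, Hist1h4m and Hist1h4b had differences of -0.12, 0.08 and 0.09. These 3 read the same genes and span 0.21, about as much as the whole difference of Hist1h4b.

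The 6 probe sets that name genes of more than 1 histone type were mostly higher in Cat+, in 5 of 6, where 51.7% of all probe sets were. The probe set led by Hist1h2bc, which names 7 genes of H2B and H4, stood at log2 7.93 in Cat+ against 7.61 in Cat-, a ratio of 1.26. The 3 that name the H2A genes Hist1h2ac, Hist1h2ai, H2ac23, hist1h2ail2 and Hist1h2an with the H4 gene Hist1h4m had differences of 0.07, 0.21 and 0.27. The 2 that name H3c1 with Hist1h2ail1 had differences of -0.08 and 0.28, so probe sets of the same genes fell on both sides of 0. RefSeq gives H3 histone among the other names of Hist1h2ail1, and with these 2 probe sets counted as H3, 4 of 4 mixed probe sets and 4 of 6 replication-dependent H3 probe sets were higher in Cat+.

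**Figure D4:**
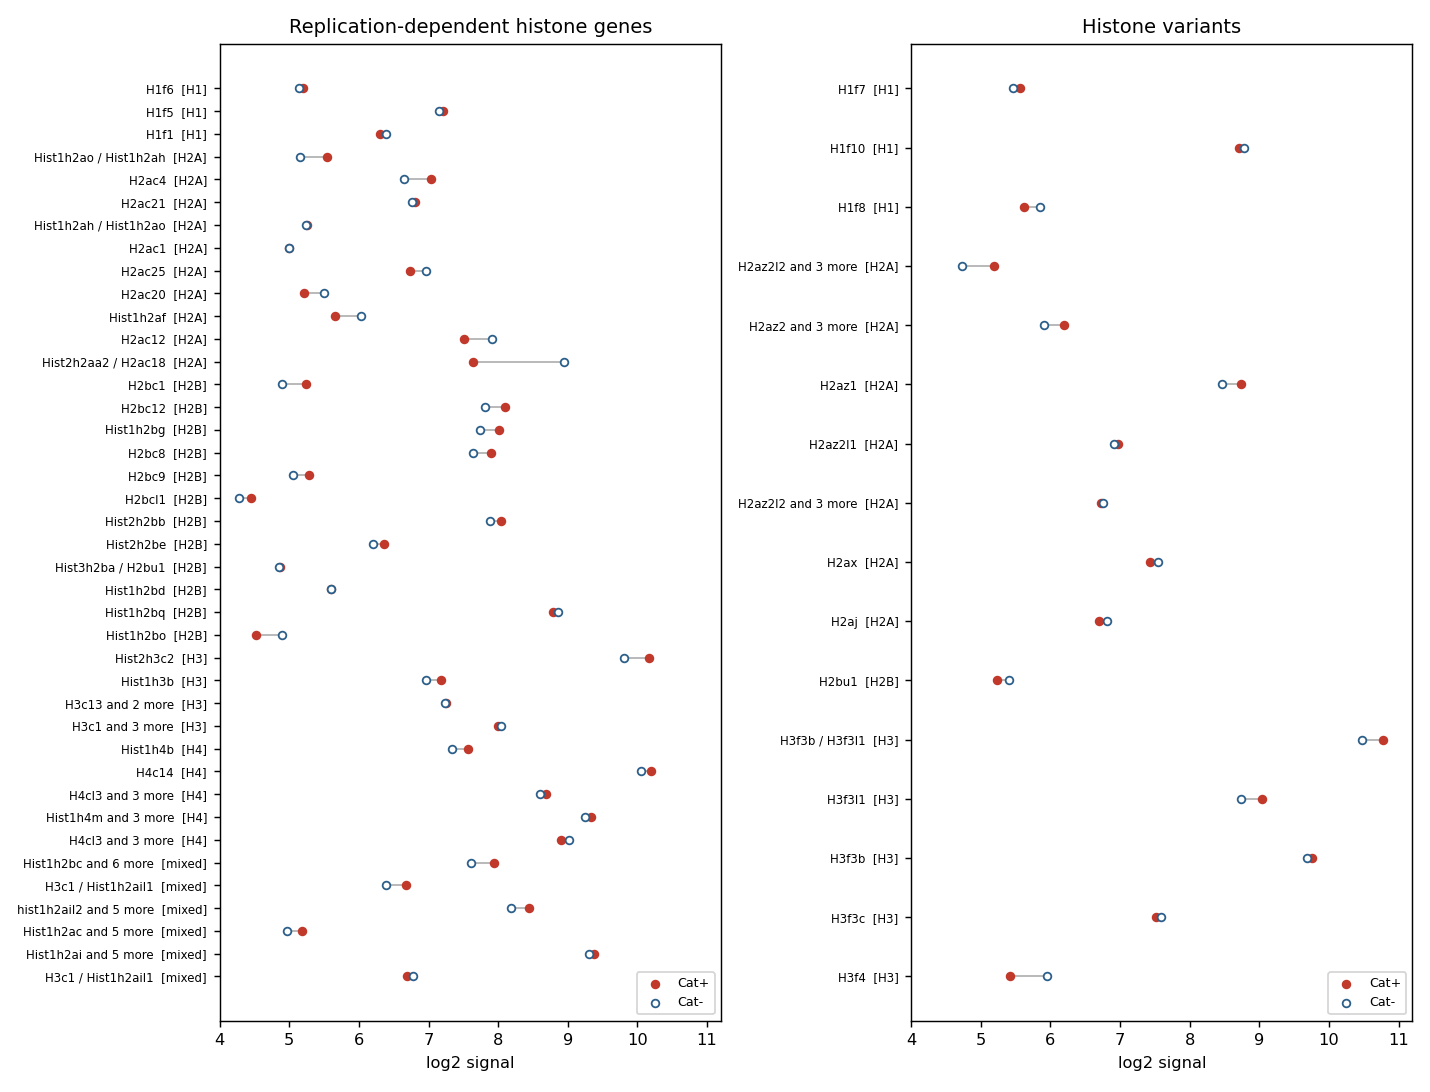
Log2 signal of each histone probe set in Cat+ (filled red) and Cat- (open blue), joined by a line, for replication-dependent genes (left) and variants (right), grouped by the histone type in brackets. The widest gap is that of Hist2h2aa2 and H2ac18, at 7.64 in Cat+ and 8.95 in Cat-; signals of different probe sets are not comparable with each other.

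Linker histones differed little. None of the 6 H1 probe sets was more than 25% higher or 20% lower. H1f5, a replication-dependent H1 gene, stood at log2 7.20 in Cat+ against 7.15 in Cat-, and H1f1 had 6.31 in Cat+ and 6.39 in Cat-. H1f10, a replication-independent linker histone, had 8.71 in Cat+ and 8.78 in Cat-. The germline forms were H1f6, the testis H1t, at 5.20 in Cat+ and 5.13 in Cat-, H1f7, the spermatid form, at 5.56 in Cat+ and 5.46 in Cat-, and H1f8, the oocyte form, at 5.62 in Cat+ and 5.85 in Cat-. H1f6 and H1f7 lay below the array's median in both samples.

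Among variants, the H3.3 and H2A.Z genes held the highest differences. H3.3 replaces H3 outside S phase, and the probe set that names H3f3b and H3f3l1 stood at log2 10.78 in Cat+ against 10.47 in Cat-, a ratio of 1.23. H3f3l1 alone had 9.04 in Cat+ and 8.74 in Cat-, while H3f3b alone had 9.76 in Cat+ and 9.69 in Cat-. H3f3c, which RefSeq lists as a pseudogene, had 7.51 in Cat+ and 7.58 in Cat-. The H3.3 copies are near-identical, and cross-hybridization between them was not measured.

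H2A.Z, an H2A variant placed at promoters, is encoded by H2az1 and H2az2. H2az1 stood at log2 8.74 in Cat+ against 8.46 in Cat-, a ratio of 1.21. The 3 probe sets that name H2az2 with its copies H2az2l1, H2az2l2 and H2az2l3 had differences of -0.03, 0.29 and 0.46, the last from a dim probe set at 5.20 in Cat+ and 4.74 in Cat-. H2az2l1 alone was at 6.97 in Cat+ and 6.91 in Cat-. The H2az2 probe sets span 0.49, more than any single difference among them, so no value for H2az2 can be given.

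The remaining variants of H2A, H2B and H3 were lower in Cat+. H2ax, the form phosphorylated at DNA breaks, stood at log2 7.43 in Cat+ against 7.55 in Cat-, a ratio of 0.921, and H2aj had 6.69 in Cat+ and 6.81 in Cat-, a ratio of 0.919. H2bu1 alone had 5.23 in Cat+ and 5.41 in Cat-, below the array's median in both. The probe set that names it with Hist3h2ba, counted as replication-dependent, had 4.87 in Cat+ and 4.85 in Cat-, so the 2 differ in sign. H3f4, a testis H3 in human, had 5.42 in Cat+ and 5.94 in Cat-, a ratio of 0.697, with only its Cat- signal above the median. RefSeq also lists H2bu1 and H3f4 under the older cluster names Hist3h2bb and Hist3h3, so their place among the variants rests on their current symbols.

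Set against each other, the replication-dependent probe sets had a median difference of 0.07, with 28 of 40 higher in Cat+, and the variants had a median of 0.01, with 8 of 16 higher. Over all probe sets 51.7% were higher, and 49.3% of those at or above the array's median. Of the 56 histone probe sets, 13 fall in 5 groups that name the same genes, so these counts are not counts of separate genes. The gap between the medians was 0.06. It dropped to 0.01 when H2ax and H2aj, or H2bu1 and H3f4, were counted with the replication-dependent genes. It was 0.22 over probe sets that name 1 gene, where the medians were 0.15 for replication-dependent genes and -0.07 for variants. By cluster, the 26 replication-dependent probe sets that name genes of chromosome 17 alone had a median of 0.20, with 19 higher in Cat+ and 7 lower, and no difference in this cluster was past 2-fold.

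Histone promoters shared letters that the rule did not use. Promoter sequences were matched for 54 of the 59 symbols and searched in the 250 bases before the start, on both strands. The CCAAT box was found in 37 of 40 replication-dependent promoters and 9 of 14 variant promoters, where 34.0% of all 33469 promoters held it. The TATA box was found in 23 of 40 and 3 of 14, where 12.9% of all promoters held it. The octamer was found in 13 of 40 and 2 of 14, where 1.56% of all promoters held it. It was in 7 of 15 H2B promoters and 7 of 24 H2A promoters. Head-to-head genes share much of the searched DNA, so the same match can count for both genes of a pair. In the sequences printed above, H2ac18 has 2 CCAAT boxes and 1 TATA box and no octamer, Hist2h3c2 has 2 CCAAT boxes, and the DNA between H2bc12 and H2ac12 and that between H2ac20 and Hist2h2be each have 3 CCAAT boxes and 1 octamer. The first of these stretches has 1 TATA match and the second has 3, of which 2 overlap. A match is a run of letters and does not show that a factor binds there.

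Genes that serve histone production differed in the same small range. Of 22 measured of 26 listed genes of histone mRNA transcription and processing, 14 were higher and 8 lower in Cat+, with a median difference of 0.03. Over all probe sets, 51.7% were higher in Cat+, 4.83% were more than 25% higher and 4.95% more than 20% lower. Eri1, the exonuclease that trims and degrades histone mRNA at the stem-loop, stood at log2 7.43 in Cat+ against 7.04 in Cat-, a ratio of 1.31, and was the only gene of the list more than 25% higher, with none more than 20% lower. Nelfe, a subunit of the negative elongation factor, was at 7.60 in Cat+ and 7.29 in Cat-. The lowest were Sympk, the scaffold of the cleavage complex, at 6.96 in Cat+ and 7.13 in Cat-, and Coil, which encodes the coilin of Cajal bodies, at 5.70 in Cat+ and 5.81 in Cat-. Slbp, named here after its value was seen because it encodes the stem-loop binding protein, was at 5.29 in Cat+ and 5.31 in Cat-, below the array's median.

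Of 25 measured of 28 genes listed for histone chaperones and nucleosome assembly, 11 were higher and 14 lower, with a median of -0.02. They include Cenpa, which encodes the centromeric H3 variant CENP-A and no chaperone, and whose symbol the rule for histone genes does not match. Cenpa stood at log2 5.34 in Cat+ against 5.46 in Cat-, below the array's median. The shares over all probe sets were 51.7% higher in Cat+, 4.83% more than 25% higher and 4.95% more than 20% lower. Nasp, which escorts H3, H4 and H1, stood at log2 7.28 in Cat+ against 6.87 in Cat-, a ratio of 1.33. Supt16h, a subunit of the FACT complex, was at 7.84 in Cat+ and 7.45 in Cat-, a ratio of 1.31. Nap1l4, a carrier of H2A and H2B, was at 10.23 in Cat+ and 10.64 in Cat-, a ratio of 0.753. These 3 were the genes of this list more than 25% higher or 20% lower, while Vps72, which deposits H2A.Z, was at 6.20 in Cat+ and 6.36 in Cat-.

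Of 34 listed S phase and proliferation genes 29 were measured, with a median of 0.09. Of these, 20 were higher in Cat+ and 9 lower, where 51.7% of all probe sets were higher. In the list, 4 were more than 25% higher and 1 more than 20% lower, where 4.83% and 4.95% of all probe sets were. None was past 2-fold, where 0.348% of all probe sets were past it lower and 0.0234% higher. Top2a, the topoisomerase of dividing cells, was at 7.50 in Cat+ and 6.93 in Cat-, a ratio of 1.48, and Rrm2, a subunit of ribonucleotide reductase, was at 7.25 in Cat+ and 6.79 in Cat-, a ratio of 1.38. At the low end, Cdc6, which loads the replicative helicase and was chosen for its value, stood at log2 5.04 in Cat+ and 5.39 in Cat-, a ratio of 0.784, below the array's median in both samples. Of the genes at or above that median the lowest were Gins2, of the replicative helicase, at 5.54 in Cat+ and 5.69 in Cat-, and Cdt1, a licensing factor, at 5.77 in Cat+ and 5.91 in Cat-.

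**Figure D5:**
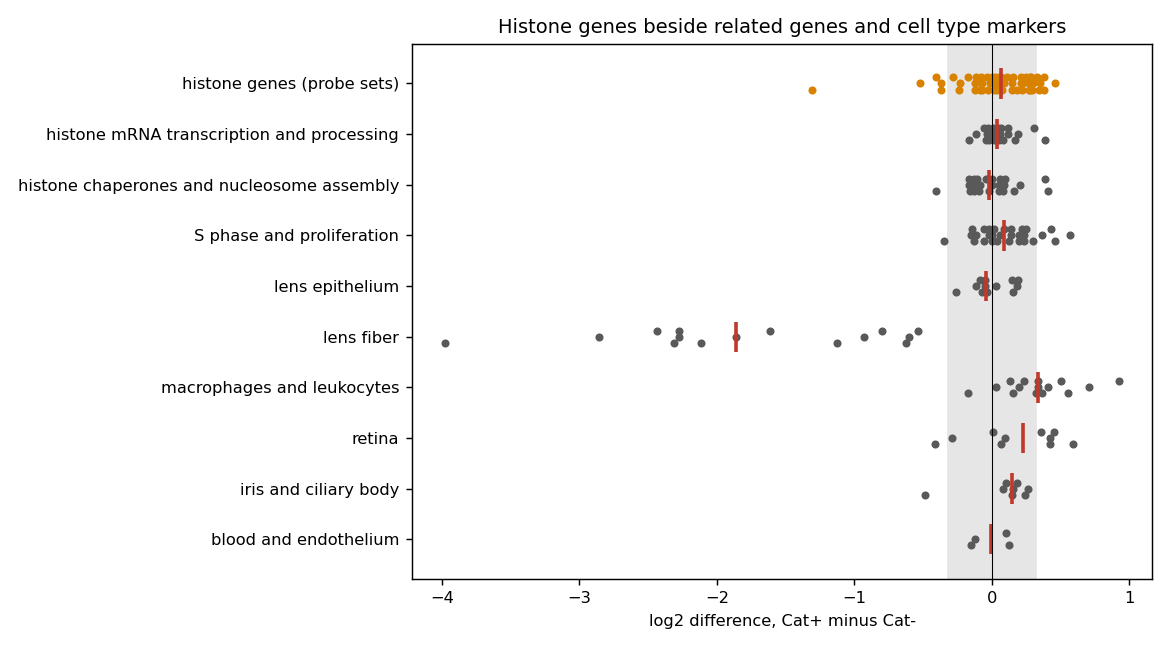
Log2 difference Cat+ minus Cat- of the 56 histone probe sets (orange) and of the measured genes of 9 lists (grey), with a red bar at each median; the shaded band runs from the 5th to the 95th percentile of all probe sets. Histone, chaperone and S phase genes centre near 0, lens fiber genes lie at a median of -1.86 and macrophage and leukocyte markers at 0.34.

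Markers of other cells moved between the same 2 samples. All 15 measured of 18 listed lens fiber genes were lower in Cat+, among them Lgsn at 6.36 in Cat+ and 10.33 in Cat-, and their log2 signals ran from 5.42 to 11.50 in Cat+ and from 6.88 to 12.13 in Cat-. Several of these fiber genes were named by the study from these same arrays, so the list is not independent evidence of its direction. Of 15 macrophage and leukocyte markers 14 were higher in Cat+, with log2 signals from 5.27 to 9.25 in Cat+ and from 5.19 to 8.54 in Cat-, and Cd68 at 6.89 in Cat+ and 5.97 in Cat-. Of 10 measured retina markers 8 were higher, and of 8 measured markers of iris and ciliary body 7 were, where 51.7% of all probe sets were. Of 10 listed markers of blood and endothelium 4 were measured, of which 2 were higher and 2 lower. The part of these cells in the low value of Hist2h2aa2 and H2ac18, or in the higher values of H2B genes, was not tested.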

How the data were processed

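LEC RNA was labelled with a kit for small inputs and hybridized to GeneChip Rat Gene 2.0 ST arrays, 1 for Cat+ and 1 for Cat-. For 29870 probe sets, log2 signals were deposited after the authors divided each array by a control or by its own average intensity. That the scale is log2 was read from the range of 4.13 to 12.56. How background was corrected and probes were combined was not stated.

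The log2 difference Cat+ minus Cat- was computed as deposited, with no filter. With 1 array a group, no test was run, and the number of arrays limits precision. Genes were named from the platform annotation, and 58 of 59 histone symbols matched the RefSeq table for GRCr8. The array files name no build, so coordinates belong to RefSeq sequences only. The histone members and gene lists were chosen with earlier results of these data known. Values are given for all variants, the 3 highest and 3 lowest replication-dependent probe sets of a type, and the 2 highest and 2 lowest genes of each related list at or above the array median (fewer for cell type markers); neighbours and other members were added after their values were seen. A listed gene took its brighter probe set.

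Alternatives were median centring, quantile normalization, loess with a span of 0.3, a filter at the array median, a floor at the 20th percentile, probe sets of 1 gene, no testis genes of the clusters (H1f6, H2ac1, H2bc1 and H3f4), another class for H2ax and H2aj, and a threshold of 1.5-fold. The tools were pandas 2.3.3 and NumPy 2.4.6 in Python 3.11.15, with statsmodels 0.14.6 for loess and matplotlib 3.10.9 for plots.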

Additional observations from a re-analysis of the deposited data

How the results depend on the processing

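No paired analysis was possible because each group has 1 array. A median was taken as moved when it shifted by more than 0.05 on the log2 scale, and a count when it changed by more than 1.5 times. Medians by histone type in this section cover replication-dependent genes and variants together. As deposited they were -0.0097 for H1, 0.0050 for H2A, 0.0682 for H3 and 0.0898 for H4. None of the medians or counts moved by that much under centring, quantile normalization, loess or the floor. With probe sets at or above the array median, the gap between replication-dependent genes and variants was 0.11, the median of H1 was -0.0739 and that of H2A -0.0727, and 3 of the 28 replication-dependent probe sets left were more than 25% higher, against 5 of 40 without the filter. With probe sets of 1 gene, the medians were 0.15 for replication-dependent genes, -0.0717 for variants, -0.12 for H2A, 0.14 for H3 and 0.19 for H4, the gap was 0.22, 17 of the 25 replication-dependent probe sets left were higher, against 28 of 40, 3 were more than 25% higher, and 0 histone probe sets were past 2-fold, since the probe set of Hist2h2aa2 and H2ac18 names both genes. Without the testis genes H1f6, H2ac1, H2bc1 and H3f4 the medians were -0.0698 for H1 and 0.14 for H3, and leaving out the germline genes H1f7 and H1f8 too gave the same values. With H2ax and H2aj, or with H2bu1 and H3f4, counted as replication-dependent, the gap was 0.0060. Counting the 2 probe sets of H3c1 and Hist1h2ail1 as H3 moved no median or count. This setting, the one that leaves out H1f7 and H1f8, the H2bu1 and H3f4 setting and the one without Hist2h2aa2 and H2ac18, which left 0 probe sets past 2-fold, were chosen after seeing the data. At 1.5-fold, 0 replication-dependent probe sets were higher and 1 lower. The precision of these values cannot be given from 1 array a group, and 15 of the 56 probe sets lay below the array's median.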
